A study of Mus musculus with 66 samples.

Results

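The anus of wild-type C57BL/6 mice was compared between day 6 of dextran sulfate sodium (DSS) and the uninjured state. DSS is a sulfated sugar polymer given by mouth that damages the lining of the colon. The samples were those labelled as anal at day 0 (4 mice, numbered 1 to 4, no injury) and at day 6 (3 mice, numbered 8 to 10), 7 of the 66 RNA sequencing samples of the series. Mice were bought at 6 weeks of age, and DSS was given at 3% for 6 days from day 0, so that day 6 is the end of exposure. Every sample came from a different mouse, all groups share the wild-type C57BL/6 background, and no transgene or other treatment is named. A further 3 groups served for the main comparisons: the anus at day 3 of DSS (mice 5 to 7, exposure not completed), and the rectum of mice 1 to 4 and of mice 8 to 10 at day 0 and day 6. The later course is given from the anus at days 9, 14 and 20 (mice 11 to 13, 14 to 16 and 17 to 19). Those mice had the same 6 days of DSS at 3%, which had then ended. The rectum of mice 5 to 7 and 11 to 19 is shown in the figure of the course.

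The anal section holds a junction. Stratified squamous epithelium, a multilayered sheet that renews from a basal layer, meets the single-layered glandular epithelium of the rectum there, where absorptive colonocytes take up salt and water and goblet cells secrete mucus. Between them lies a narrow transition zone with keratins of both kinds. DSS colitis erodes glandular epithelium and draws neutrophils and monocytes into the tissue, and squamous epithelium is known to express wound-type keratins when it is injured.

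The uninjured anal samples carried markers of both epithelia. The basal keratin Krt14 was at 1208, 2599, 2427 and 2609 TPM (an abundance adjusted for transcript length and scaled to the same total in each sample) in mice 1 to 4. The colonocyte lectin Lgals4 was at 975, 1349, 684 and 2385 TPM in the same mice. The section was also rich in striated muscle: 15 skeletal muscle genes summed to between 2258 and 24964 TPM at day 0 and between 2716 and 13156 at day 6, although the study's design text states that muscle was dissected away. Uninjured mouse 1 stood apart, with the lowest sum of skeletal muscle, adipocyte (119 TPM against 551 to 4205 in the others) and hair and sebaceous genes (27.5 against 329 to 1024). Depth is unknown because the table holds no read counts. Between 12406 and 13789 genes reached 1 TPM at day 0 and between 12926 and 13291 at day 6, and mitochondrial transcripts took 6.26% to 12.3% and 6.78% to 7.73% of the total.

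Of 13730 genes tested, 2060 (15.0%) differed between day 6 and day 0 at an adjusted p under 0.05 with limma, 1186 higher (8.64%) and 874 lower (6.37%). Scaling by trimmed means of M-values (TMM) called 18.3% of genes and turned the balance to 1161 higher (8.46%) and 1345 lower (9.8%). For 29.1% of all genes tested the 2 groups did not overlap, and counts of separate groups below are to be read against that share. The count was 1281 without uninjured mouse 2, and 911, 805 and 953 without day 6 mouse 8, 9 and 10. Fold changes below are on the log2(TPM + 1) scale with their standard error (SE), which understates changes of low genes, and each adjusted p is from limma with Benjamini-Hochberg adjustment over all genes tested. Because the tissue was sequenced in bulk, fewer cells of a type and less RNA per cell cannot be told apart, and a relative abundance also moves when other transcripts move.

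Glandular transcripts fell steeply in the anus by day 6. All 15 tested genes of the 16 on the absorptive colonocyte list were lower (list median −4.57, against 0.07 over all genes tested), and 10 of 11 tested goblet cell genes were lower (median −4.65). Summed over the list, colonocyte transcripts fell from between 2014 and 6208 TPM in uninjured mice to between 78.2 and 148 TPM, with no overlap. Goblet transcripts went from between 1090 and 3881 TPM to between 51.7 and 102. They were still detected, and 0 of the 16 colonocyte genes were at 0 in all 3 day 6 samples. Uninjured mouse 4 had the highest sum of both lists.

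Slc26a3, the chloride and bicarbonate exchanger of the colonic surface, was at 52.9, 98.4, 104 and 311 TPM in uninjured mice 1 to 4 and at 0.822, 1.51 and 0.837 TPM in day 6 mice 8 to 10. Its log2 change was −5.82 (SE 0.50, adjusted p 0.000393). The water channel Aqp8 went from 59.4, 110, 85.6 and 179 TPM to 0.779, 0.788 and 0.5 (log2 −5.91, SE 0.33, adjusted p 0.000108). Every uninjured sample was far above every day 6 sample for both genes. Both are among the 15 largest falls named below, for which groups without overlap were required. Carbonic anhydrase 1 (Car1) went from 198, 445, 296 and 831 TPM to 15.1, 6.29 and 4.05, and Lgals4 from the values given above to 32.9, 15.5 and 18.1.

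Among secretory genes, Muc2, the gel-forming mucin of the colonic mucus layer, was at 24.3, 37.7, 40.3 and 154 TPM at day 0 and at 3.16, 1.4 and 3.41 at day 6 (log2 −3.83, SE 0.56, adjusted p 0.00305). Tff3, a small peptide of goblet cells that aids mucosal repair, fell more, from 311, 390, 179 and 860 TPM to 9.54, 8.21 and 7.77 (log2 −5.29, SE 0.44, adjusted p 0.000348). Clca1 fell by 5.31 and the mucus protein Fcgbp by 2.31 on the same log2 scale. The goblet cell transcription factor Spdef was the exception, with a log2 change of −1.03 (SE 0.31) and an adjusted p of 0.0542.

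Transcription factors that maintain intestinal identity were lower too. Of 10 on the list 6 were tested and 5 were lower, with a median of −2.20. Hnf4a was at 25.4, 33.6, 23.5 and 77 TPM and then at 0.729, 0.3 and 0.508 (log2 −4.60, SE 0.39, adjusted p 0.000357). Cdx1, a homeobox gene of the intestine, went from 14, 17.8, 11.8 and 41.3 TPM to 0.351, 0.0275 and 0.346 (log2 −4.00, SE 0.39, adjusted p 0.000604). Both ended below 1 TPM in every day 6 mouse. Gata6 had a log2 change of −1.01 and an adjusted p of 0.082. The list's count was 3, 2 and 3 without day 6 mouse 8, 9 and 10.

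The 15 largest falls were taken among called genes whose groups did not overlap and that had a mean of at least 8 TPM in the higher group. By size they were Sycn, Lypd8, Dmbt1, Pigr, Mptx1, Tspan1, Aqp8, Krt8, Slc26a3, Gsdmc4, Sval1, Lgals4, Muc13, Phgr1 and Muc3, with log2 changes between −6.69 and −5.61. Lypd8, an anchored protein that keeps bacteria off the colonic surface, was the most abundant of them, at 5426, 5251, 3082 and 9062 TPM in uninjured mice and 133, 24.5 and 51.8 at day 6. Pigr, the receptor that carries dimeric IgA through epithelial cells, went from 163, 175, 160 and 601 TPM to 2.28, 1.63 and 2.25. Gsdmc4 has near-identical neighbours, so its reads may have been split among copies and its value is uncertain.

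Claudins, the sealing proteins of tight junctions, fell in part. Of 8 tested, 6 were lower (median −2.02). Cldn3 went from 83, 109, 60.9 and 201 TPM to 6.94, 1.04 and 3.71 (log2 −4.61, SE 0.51, adjusted p 0.000875), and Cldn7 and Cldn8 fell by 4.05 and 2.12 on the log2 scale. Cldn4 fell by 1.31 and Cldn23 by 1.96. Cldn1, a claudin of squamous epithelium and skin, was at 34.7, 36.8, 42 and 36.1 TPM before and 39.5, 40.4 and 30.4 after, ranges that overlap (log2 −0.03, SE 0.16, adjusted p 0.928), and its sign turned to 0.02 without uninjured mouse 3 and 0.10 without day 6 mouse 10.

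**Figure D1:**
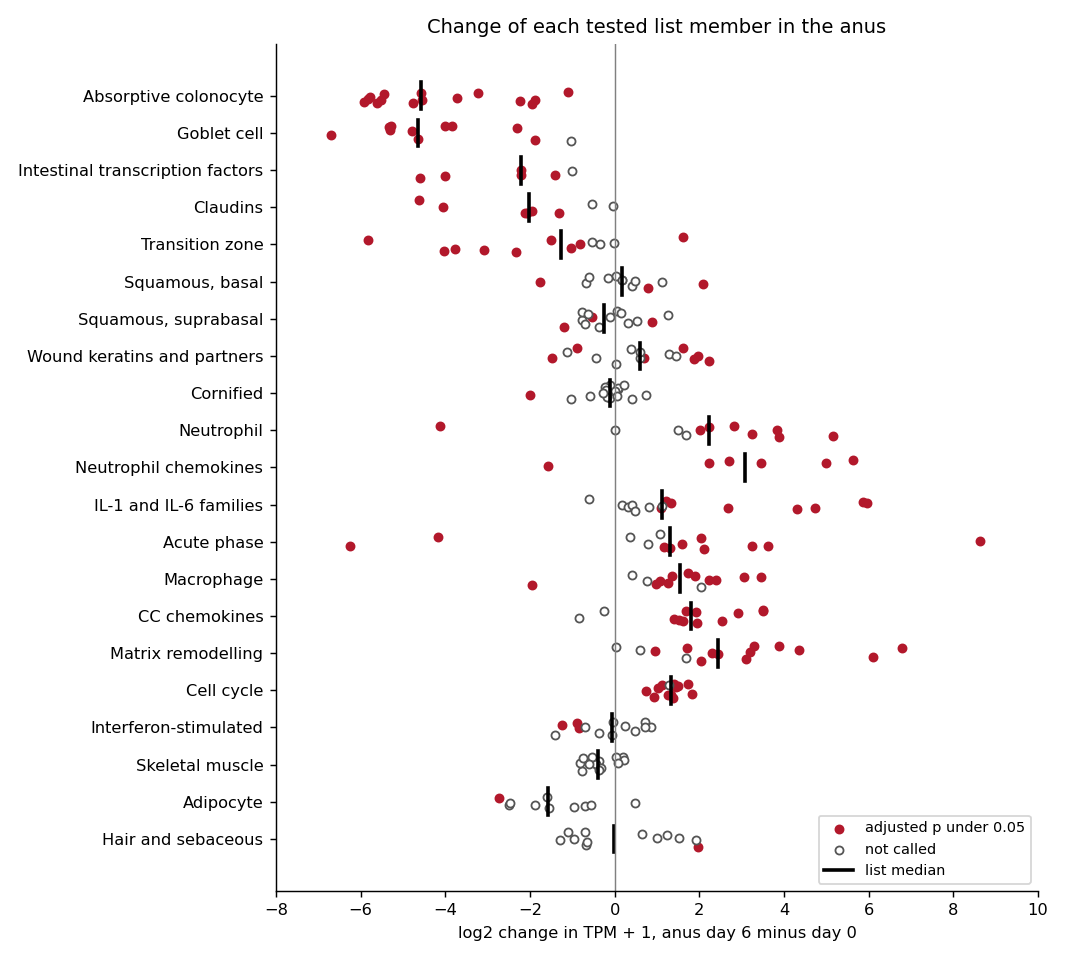
Log2 change in TPM + 1 between day 6 and day 0 of the anus (horizontal axis) for each tested member of 21 gene lists (rows). Filled points were called at an adjusted p under 0.05, open points were not, and the bar is the list median, from −4.65 for goblet genes to 3.08 for neutrophil chemokines. Skeletal muscle genes, of which 0 of 14 were called, lie near the zero line.

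Keratins moved in both directions. Krt8, the type II keratin of single-layered epithelia, was at 580, 957, 549 and 1833 TPM at day 0 and at 47.6, 6.19 and 9.13 at day 6 (log2 −5.83, SE 0.66, adjusted p 0.00105). Its partners Krt18 and Krt19 fell by 3.77 and 4.04. Krt14 rose from the day 0 values given above to 7417, 9489 and 10095 TPM (log2 2.08, SE 0.29, adjusted p 0.00246), so that every day 6 sample was above every uninjured one. Its basal partner Krt5 was at 454, 1091, 1145 and 1088 TPM and then at 1320, 2002 and 2659, also without overlap, but missed the threshold (log2 1.11, SE 0.36, adjusted p 0.0753).

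A different basal keratin went the other way. Krt15, which marks quiescent basal cells in several squamous tissues, was at 584, 891, 981 and 795 TPM in uninjured mice and at 222, 186 and 316 at day 6 (log2 −1.76, SE 0.23, adjusted p 0.00215). Krt16, a keratin of activated keratinocytes, was at 212, 242, 106 and 228 TPM and then at 482, 1779 and 814 (log2 2.23, SE 0.44, adjusted p 0.012). Krt17, of the same wound response, was at 177, 630, 505 and 467 TPM and then at 1118, 1078 and 1590 (log2 1.62, SE 0.40, adjusted p 0.0278). Trp63, the transcription factor that maintains squamous basal cells, was at 18.1, 21.5, 28.8 and 20.5 TPM and then at 34.9, 38.1 and 43.2 (log2 0.79, SE 0.19, adjusted p 0.0262). Uninjured mouse 1 was the lowest of its group for Krt14, Krt5, Krt17 and Trp63. The call of Krt17 was lost when any 1 of the 3 day 6 mice was left out, and that of Trp63 when any 1 of them or uninjured mouse 2 was, with adjusted p-values up to 0.106 and 0.108. Among 15 genes on the wound list, 5 were higher, 2 lower and 8 not called (median 0.61). The higher count was 2 without day 6 mouse 9 or 10, where Il24 was not tested. The higher genes included Fosl1, an AP-1 subunit (1.44, 1.2, 1.24 and 0.668 TPM, then 7.36, 6.22 and 6.65). They also included the cytokine Il24, listed at 0 in 3 uninjured mice and at 3.45, 3.71 and 2.87 TPM at day 6.

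Calls on the squamous lists are to be read against those over all genes tested, 8.64% higher and 6.37% lower. On the basal list 2 of 12 genes were higher and 1 lower. On the suprabasal list 1 of 14 was higher and 2 lower, and on the cornified list 1 of 17 was lower. The suprabasal keratins Krt13 (3203 to 8919 TPM, then 1659 to 4593) and Krt4 (1773 to 3864, then 1035 to 2010) overlapped between the groups, with adjusted p-values of 0.266 and 0.171. The cornified gene called lower was Tgm3, a transglutaminase with a mean of 583 TPM in uninjured rectum, which went from 76.2, 102, 72.6 and 216 TPM in the anus to 18.8, 45.5 and 19.4 (log2 −1.99, SE 0.43, adjusted p 0.017). That call was lost without day 6 mouse 8 or 10 (adjusted p up to 0.0751). Defb3, a beta-defensin of squamous epithelium, was listed at 0 in all 4 uninjured mice and at 2.83, 6.09 and 9.78 TPM at day 6 (adjusted p 0.0013, a call lost with all anal samples in the fit).

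On the transition zone list 8 of 12 genes were lower and 1 higher, Krt17 (median −1.26). The lower genes included the simple keratins Krt8, Krt18 and Krt19 but also genes that were higher in uninjured anus than in uninjured rectum. Psca, a small anchored protein of stratified and transitional epithelia, was at 2187, 1372, 1164 and 1038 TPM in uninjured anus and at 311, 232 and 283 at day 6 (log2 −2.33, SE 0.25, adjusted p 0.000854), whereas uninjured rectum had a mean of 12.4 TPM. Its day 3 values were 392, 413 and 390 TPM, below every uninjured mouse. The membrane mucin Muc4 was at 19.7, 23.8, 20.8 and 17.9 TPM, at 5.95, 2.4 and 6.95 on day 3 and at 1.8, 0.9 and 2.02 on day 6 (day 6 against day 0, log2 −3.09, SE 0.22, adjusted p 0.000211). Between day 3 and day 0 neither Psca nor Muc4 was called, as for 0 of 12 genes on this list. The share of all genes whose day 3 and day 0 groups were separate was not counted. Krt23, with a mean of 4.8 TPM in uninjured rectum and 157 in uninjured anus, fell by 1.50 by day 6 (SE 0.28, adjusted p 0.00967).

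**Figure D2:**
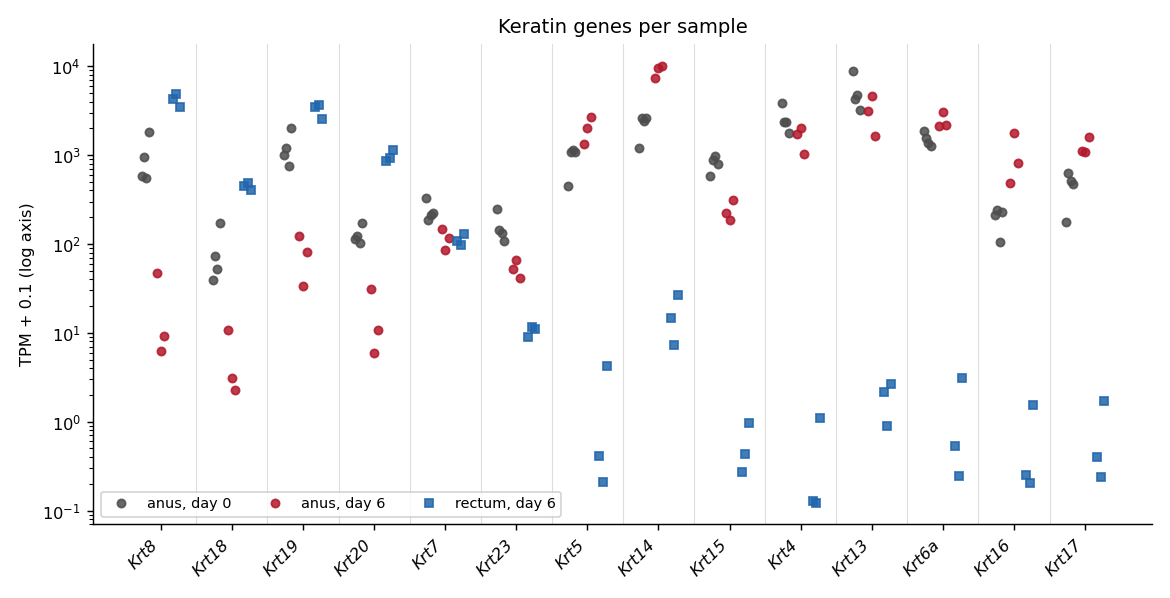
TPM + 0.1 (log axis) of 14 keratin genes in each sample of the anus at day 0 (grey, 4 mice) and day 6 (red, 3 mice) and of the rectum at day 6 (blue squares, 3 mice). Krt8 fell to between 6.19 and 47.6 TPM in the anus while the rectum of the same mice kept a mean of 4195, and Krt14 stood between 7417 and 10095 TPM in the anus at day 6.

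Inflammation rose over the same interval. The 15 genes with the largest rises, chosen by the same rule as the falls, were Saa3, Mmp10, Mmp13, Il1rl1, Il1b, Cxcl1, Retnlg, Cxcl2, Il11, Mmp3, Il6, Clec4d, Timp1, Csf3r and Clec4e, with log2 changes between 8.64 and 3.83. Cytokines and chemokines, metalloproteinases and receptors of myeloid cells are among them, as are the metalloproteinase inhibitor Timp1 and the secreted protein Retnlg. Saa3, an acute-phase apolipoprotein made locally in inflamed tissue, was at 0, 0.221, 26.7 and 9.17 TPM in uninjured mice and at 1985, 1676 and 1504 at day 6 (log2 8.64, SE 1.06, adjusted p 0.00142). The mean rose from 9.01 to 1722 TPM.

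Saa3 lies at chr7:46711998-46715700 on the minus strand (GRCm38), next to Saa1 and Saa2, and the neighbours moved apart. Saa1 was at 711, 598, 330 and 848 TPM at day 0 and at 53.3, 13.5 and 42.2 at day 6 (log2 −4.18, SE 0.47, adjusted p 0.00104). In the rectum its mean rose from 1893 to 10476 TPM over the same days. Saa2 was low throughout, at 0.96, 0, 0.449 and 1.77 TPM and then at 3.01, 3.87 and 5.5 (log2 1.59, SE 0.36, adjusted p 0.0199), a call lost without day 6 mouse 9 or 10 (adjusted p up to 0.0852). Saa1 and Saa2 are close in sequence, so that reads may have been divided between them.

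The interleukin-1 and interleukin-6 families supplied 8 higher genes of 15 tested and 0 lower (median 1.11). Il1b, the main secreted cytokine of activated neutrophils and macrophages, was at 4.1, 2.99, 0.698 and 2.37 TPM and then at 246, 451 and 60.8 (log2 5.86, SE 0.63, adjusted p 0.000842). Il6, an inducer of acute-phase genes, was at 0.176 TPM or less in uninjured mice and at 39.3, 12.6 and 17.6 at day 6 (log2 4.31, SE 0.35, adjusted p 0.000302). Il11, a related cytokine of stromal cells, went from 0.107, 0.213, 0.151 and 0.286 TPM to 53.5, 23.5 and 22.7 (log2 4.73, SE 0.31, adjusted p 0.000187). Osm, of the same family, rose by 2.67. Il1rl1, which encodes the receptor of interleukin-33, went from 0.434, 1.05, 0.645 and 0.708 TPM to 155, 119 and 63 (log2 5.97, SE 0.30, adjusted p 0.000108). The groups were separate for each of these genes. For all but Osm this was fixed in advance, because the rule for the largest rises required it. The list's count was 2, 4 and 4 without day 6 mouse 8, 9 and 10; with 2 day 6 mice left, genes near 0 at day 0, Il6, Il11 and Osm among them, could not reach 1 TPM in 3 samples and were not tested.

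Of 13 acute-phase genes tested 8 were higher, 2 were lower and 3 were not called. Those that were lower, Saa1 and Pigr, are described above. Socs3, the feedback inhibitor of interleukin-6 signalling, was at 3.36, 4.83, 5.49 and 3.33 TPM and then at 60.4, 60.9 and 66.7 (log2 3.62, SE 0.20, adjusted p 0.000108). The transcription factor gene Cebpd rose by 2.05 (SE 0.32, adjusted p 0.00465), Lrg1 by 2.12 and Lbp, the lipopolysaccharide-binding protein, by 1.16. Lcn2, an iron-sequestering protein of neutrophils and inflamed epithelium, was at 14.4, 16.4, 40.9 and 18.6 TPM and then at 189, 161 and 284 (log2 3.25, SE 0.35, adjusted p 0.000842).

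Neutrophil-attracting chemokines rose in a cluster on chromosome 5. Cxcl1 (chr5:90891241-90893115) was at 0.283, 0.393, 0.494 and 0.378 TPM and then at 122, 57.8 and 43.2 (log2 5.63, SE 0.33, adjusted p 0.000113). Cxcl2 and Cxcl3 rose by 5.00 and 3.45. Cxcl5 was at 22.3, 5.04, 7.11 and 7.97 TPM and then at 62.4, 58.7 and 27.5 (log2 2.24, SE 0.47, adjusted p 0.0148). Ppbp (chr5:90768518-90770063), a platelet chemokine gene in the same cluster, was the exception: it was at 1268, 669, 717 and 646 TPM in uninjured anus and at 443, 235 and 182 at day 6 (log2 −1.57, SE 0.34, adjusted p 0.0168). It was at 196, 151 and 214 TPM on day 3, below every uninjured mouse, but was not called between day 3 and day 0. Csf3, the growth factor of neutrophils, rose from at most 0.29 TPM to 7.89, 9.3 and 4.59 (log2 2.71, SE 0.25, adjusted p 0.000455). The calls of Cxcl5 and Ppbp were each lost without 2 of the day 6 mice (8 or 9, and 9 or 10), with adjusted p-values up to 0.0702 and 0.0742. On this list of 8 genes, 6 were tested, 5 were higher and 1 lower, and the higher count was 2, 2 and 3 without day 6 mouse 8, 9 and 10. Cxcl1 and Csf3 reached 1 TPM only in the day 6 samples. They were not tested when a day 6 mouse was left out, so part of that drop comes from the filter.

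Genes that neutrophils themselves carry rose, with exceptions. Of 16 on the list 11 were tested, 7 were higher (Lcn2, also on the acute-phase list, is 1 of them) and 1 was lower (median 2.23), and 4 were higher without day 6 mouse 8 or 9. Trem1 and Clec4e did not pass the filter when a day 6 mouse was left out and were not tested then. Retnlg was at 0.12, 0.166, 1.04 and 0.32 TPM and then at 48, 86.6 and 26.5 (log2 5.16, SE 0.39, adjusted p 0.000231). Csf3r, the receptor of Csf3, rose by 3.88 (SE 0.38, adjusted p 0.000578), Cxcr2 by 2.01, and the receptors Trem1, Clec4e and Clec4d by 2.81, 3.83 and 4.07. Mouse 9 was the highest and mouse 10 the lowest day 6 sample for Retnlg, Csf3r, Clec4e and Il1b. S100a8, a calprotectin subunit, is also made by squamous epithelium. It was already at 524, 209, 176 and 130 TPM in uninjured anus, against a mean of 0.497 in uninjured rectum, and reached 913, 1882 and 680 at day 6 (log2 2.23, SE 0.49, adjusted p 0.0181, lost without day 6 mouse 8 or 9, up to 0.0756). Its partner S100a9 had an adjusted p of 0.0712. Ly6g, known as a neutrophil surface gene, went from 114, 112, 77.8 and 178 TPM to 10.2, 4.9 and 3.49 (log2 −4.13, SE 0.35, adjusted p 0.000388). Its mean in the rectum was 639 TPM at day 0, where that of S100a8 was 0.497, and 2086 at day 6. Whether Ly6g marks neutrophils in these sections was not tested.

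Monocyte and macrophage genes rose less steeply. Of 14 tested 10 were higher and 1 lower (median 1.54), and 3 and 4 were higher without day 6 mouse 8 and 9, where Chil3 was not tested. Ms4a7 was at 11.5, 5.41, 8.99 and 11.2 TPM and then at 65.8, 40.2 and 34.7 (log2 2.22, SE 0.30, adjusted p 0.0023), and the lysosomal gene Cd68 at 27.2, 13.9, 16.9 and 24.6 and then at 100, 67.9 and 65.7 (log2 1.89, SE 0.26, adjusted p 0.00263). Chil3 rose by 3.46 and Lyz2 by 1.73. Arg1, an enzyme of alternatively activated macrophages that keratinocytes also express, fell from 1327, 717, 666 and 477 TPM to 247, 231 and 125 (log2 −1.94, SE 0.36, adjusted p 0.00918). The monocyte attractants Ccl2 and Ccl7 rose by 3.50 and 2.53, and Ccl8 and Ccl6 by 1.69 and 1.91. Of 12 CC chemokines 10 were higher, 6 and 5 of them without day 6 mouse 8 and 9. For 3 lists of other cells the test made no call: 6 MHC class II genes, 5 T cell genes and 5 mast cell and eosinophil genes tested, with medians of 0.43, 0.31 and 0.88.

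Matrix-degrading enzymes and their inhibitors rose. Of 15 genes 12 were higher and 0 lower (median 2.45). Their summed abundance went from between 73.5 and 127 TPM to between 698 and 1229. Mmp10, a stromelysin of wound-edge keratinocytes, was at 0.107, 0, 0.0666 and 0.356 TPM and then at 169, 127 and 85.5 (log2 6.78, SE 0.26, adjusted p 1.69e-05). Mmp13, a collagenase, went from 0.187, 0.0864, 0.252 and 1.69 TPM to 153, 105 and 59.3 (log2 6.11, SE 0.40, adjusted p 0.000189). Mmp3, of the same cluster on chromosome 9 (chr9:7445822-7455975), went from 3.57, 7.5, 26.1 and 27.2 TPM to 353, 303 and 180 (log2 4.36, SE 0.62, adjusted p 0.00281). In each of the 3 the order of the day 6 mice was the same, 8 highest and 10 lowest. Mmp12, also of that cluster, rose by 1.70.

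Timp1, the secreted inhibitor of metalloproteinases, rose as evenly, from 11.4, 8.7, 9.41 and 14.7 TPM to 222, 150 and 159 (log2 3.89, SE 0.22, adjusted p 0.000108). The plasminogen activator Plau and its receptor Plaur rose by 3.10 and 2.31. Tnc, a matrix glycoprotein of healing wounds, was at 0.679, 3.63, 3.95 and 3.35 TPM and then at 31.7, 29.7 and 34.5 (log2 3.19, SE 0.37, adjusted p 0.00115), and Thbs1 rose by 3.30. Endothelial genes that capture leukocytes rose too: Selp by 2.77, Icam1 by 1.99 and Vcam1 by 1.42, with 5 of 10 tested endothelial genes higher and 0 lower. Growth factors and prostaglandin synthesis were represented by the epidermal growth factor receptor ligands Ereg (5.9, 4.66, 6.03 and 4.64 TPM, then 46.7, 27.7 and 24.7) and Epgn (log2 1.98), and by Ptgs2, the inducible cyclooxygenase (log2 3.62, SE 0.37, adjusted p 0.000682).

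**Figure D3:**
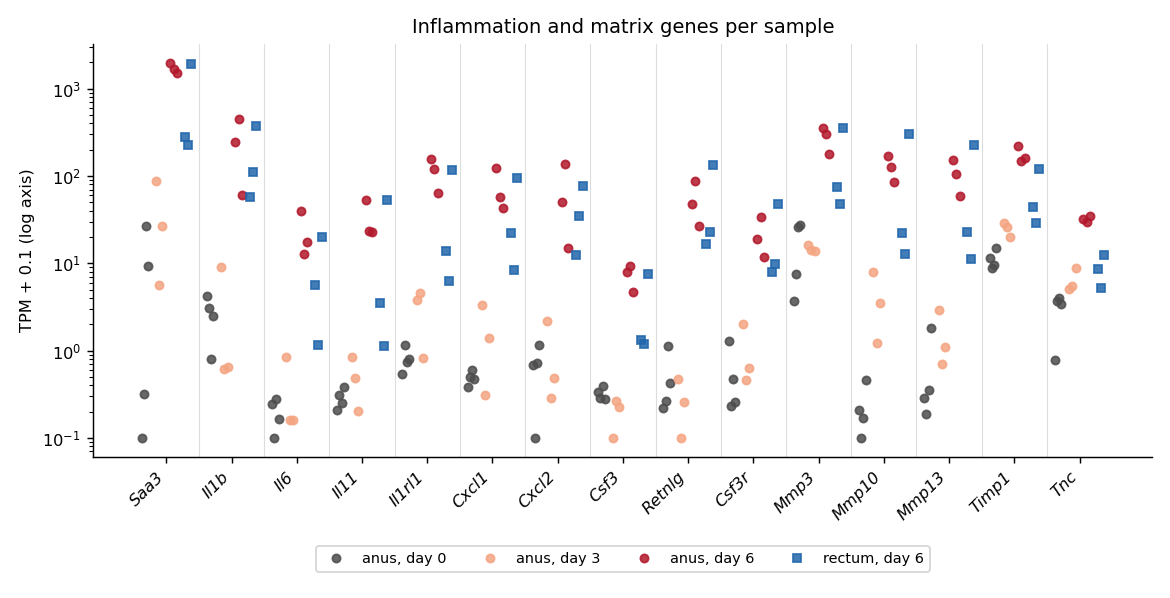
TPM + 0.1 (log axis) of 15 inflammation and matrix genes in each sample of the anus at days 0, 3 and 6 and of the rectum at day 6. In the anus Saa3 stood between 1504 and 1985 TPM and Mmp10 between 85.5 and 169 TPM at day 6, above all day 0 and day 3 samples. In the rectum mouse 10 was the highest of 3 for each gene shown.

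The letters upstream of genes that rose together are shown with matches to short motifs of inflammatory and intestinal transcription factors. Each line gives the 250 bases before the transcription start in the RefSeq promoter table (GRCm38.p6), 5′ to 3′ on the gene's strand, with matches in capitals. The motifs searched on both strands were the kappa B consensus (bound by NF-kappa B), TGANTCA (AP-1), TTNCNNAA (C/EBP-like), CAAAGTCCA (HNF4-like) and CATAAA (CDX-like). Slc26a3 is added as a gene that fell.
Saa3, chr7:46715677-46715926, minus strand: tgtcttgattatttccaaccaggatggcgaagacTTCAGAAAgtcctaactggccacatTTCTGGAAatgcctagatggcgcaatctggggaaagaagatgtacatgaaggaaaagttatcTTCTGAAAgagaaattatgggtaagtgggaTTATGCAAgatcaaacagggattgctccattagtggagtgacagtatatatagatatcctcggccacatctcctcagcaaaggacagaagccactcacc
Il6, chr5:30012864-30013113, plus strand: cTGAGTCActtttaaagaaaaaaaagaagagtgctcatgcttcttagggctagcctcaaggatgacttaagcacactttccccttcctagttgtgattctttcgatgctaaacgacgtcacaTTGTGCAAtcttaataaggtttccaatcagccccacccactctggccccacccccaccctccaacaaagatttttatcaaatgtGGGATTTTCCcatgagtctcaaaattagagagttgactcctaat
Cxcl1, chr5:90890995-90891244, plus strand: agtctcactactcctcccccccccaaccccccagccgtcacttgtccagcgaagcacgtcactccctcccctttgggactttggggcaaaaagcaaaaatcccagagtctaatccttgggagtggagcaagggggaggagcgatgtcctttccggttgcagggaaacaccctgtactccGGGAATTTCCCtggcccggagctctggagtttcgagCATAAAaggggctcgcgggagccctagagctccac
Mmp3, chr9:7445572-7445821, plus strand: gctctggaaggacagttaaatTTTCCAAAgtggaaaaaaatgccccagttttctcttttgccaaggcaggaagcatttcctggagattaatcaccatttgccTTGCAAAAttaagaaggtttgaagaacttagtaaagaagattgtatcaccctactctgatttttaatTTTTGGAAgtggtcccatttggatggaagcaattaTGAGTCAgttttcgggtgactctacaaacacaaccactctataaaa
Mmp13, chr9:7272264-7272513, plus strand: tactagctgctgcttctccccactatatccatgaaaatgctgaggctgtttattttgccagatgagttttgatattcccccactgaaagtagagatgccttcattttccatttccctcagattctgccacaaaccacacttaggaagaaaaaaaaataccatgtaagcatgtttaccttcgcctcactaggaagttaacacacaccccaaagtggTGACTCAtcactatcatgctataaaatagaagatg
Slc26a3, chr12:31437969-31438218, plus strand: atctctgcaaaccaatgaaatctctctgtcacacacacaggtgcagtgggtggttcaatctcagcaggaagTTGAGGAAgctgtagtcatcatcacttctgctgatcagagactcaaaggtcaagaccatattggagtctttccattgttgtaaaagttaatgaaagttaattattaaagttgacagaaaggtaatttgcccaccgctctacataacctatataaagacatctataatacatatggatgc

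In the Il6 window the kappa B match began 44 bases before the start, the C/EBP-like match 128 and the AP-1 match 249. Cxcl1 had overlapping kappa B matches, from 71 and 70 bases before the start, and a CDX-like match at 35. The metalloproteinase genes had an AP-1 match close to the start, at 46 bases in Mmp3 and 35 in Mmp13. Saa3 had 4 C/EBP-like matches and none of the others. The 59 called genes of the inflammation and remodelling lists that were higher had 51 promoters in the table (44 genes), of which 13.7% held a kappa B, 19.6% an AP-1, 62.7% a C/EBP-like and 17.6% a CDX-like match. Over all 32851 promoters of the table the shares were 3.9%, 6.75%, 36.8% and 10.8%. For the 38 called gland genes that were lower (28 promoters, 24 genes) they were 7.14%, 17.9%, 35.7% and 17.9%. In both sets 0% held the HNF4-like letters against 0.384% of all promoters, a match too rare for sets of this size to show a difference. Of the 15 promoters of the 15 largest falls 1 held it (6.67%), and of the 17 of the largest rises 0 did. A match is a string of letters in this window and was not tested as a binding site.

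Proliferation genes rose in the anus. Of 14 cell cycle genes 13 were higher (median 1.34), and the remaining Aurkb had an adjusted p of 0.0818. Rrm2, a subunit of ribonucleotide reductase, was at 4.71, 7.16, 6.97 and 7.47 TPM and then at 24.6, 28.2 and 23.9 (log2 1.82, SE 0.20, adjusted p 0.000847). Ccnb1, the mitotic cyclin, went from 10.1, 14.3, 12.7 and 16.8 TPM to 45, 41.8 and 32.1 (log2 1.50, SE 0.21, adjusted p 0.00274). Top2a and Tyms rose by 1.45 and 1.02. The groups were separate for each of these, and for Ccnb1 the rule that names it in the comparison with the rectum required this. Without day 6 mouse 8 and 9 the list's count was 7 and 5.

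Stress genes moved in part. Of 12 unfolded protein response genes 6 were higher and 1 lower, and the higher count was 1 without uninjured mouse 2 or any day 6 mouse, 2 without uninjured mouse 3, 4 without uninjured mouse 1 and 3 with mitochondrial and skeletal muscle genes left out of the scaling. Asns, asparagine synthetase, was at 16.4, 14, 21.6 and 19 TPM and then at 50.9, 67.1 and 52.5 (log2 1.63, SE 0.19, adjusted p 0.00126), while Chac1, a glutathione-degrading enzyme of the same pathway, fell from 10.4, 11.7, 14.9 and 18.9 to 2.87, 3.1 and 3.52 (log2 −1.82, SE 0.23, adjusted p 0.00173). The metallothionein Mt2 rose by 1.72 and the aldo-keto reductase Akr1b8 by 2.01. Few calls were made for skeletal muscle genes (0 of 14 tested, median −0.40), smooth muscle genes (0 of 8, median −1.44) and adipocyte genes (0 higher and 1 lower of 10, median −1.58). Smooth muscle genes summed to between 179 and 1324 TPM at day 0 (median 885) and between 203 and 388 at day 6 (median 324), ranges that overlap, and the part of these tissues in the other changes was not tested.

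The anus at day 3 of DSS was compared with day 6 to date the change within the exposure. Between day 3 and day 6, 2339 of 13549 genes (17.3%) were called, 983 higher (7.26%) and 1356 lower (10.0%). The count was 1020, 1542 and 1031 without day 3 mouse 5, 6 and 7, and 1443 and 1442 without day 6 mouse 8 and 9. Day 3 against day 0 gave 6 calls (0.044%) with limma, 2 (0.0147%) with TMM factors, and 615 genes at an unadjusted p under 0.05. The day 6 against day 3 comparison shares the day 6 samples with the one above, so values are set side by side only. Colonocyte transcripts summed to between 3817 and 8008 TPM at day 3, the lowest value above 3 of the 4 uninjured mice. All 15 tested colonocyte genes and all 12 tested goblet genes were lower at day 6 than at day 3, with medians of −5.28 and −5.39. The largest falls named by rule were Car1 (2164, 800 and 1395 TPM at day 3, log2 −7.32), Gsdmc4 (−7.28), Lypd8 (−7.03), Muc3 (−6.91) and Clca1 (−6.83). The largest rises were Saa3 (87, 5.55 and 26.9 TPM at day 3, log2 6.08), Il1b (6.06), Mmp13 (5.44), Retnlg (5.39) and Il1rl1 (4.91).

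At day 9, after DSS had ended, gland and matrix genes were at different stages. Colonocyte transcripts remained at 68.8 to 99.7 TPM, and 12 of 15 tested colonocyte genes were lower than at day 0 among 692 calls (5.09% of genes, 1.46% higher and 3.63% lower). With TMM factors 1155 genes were called (8.5%), 353 higher (2.6%) and 802 lower (5.9%). Matrix remodelling genes summed to between 109 and 179 TPM, and 1 of 12 tested was higher. Colonocyte transcripts reached between 380 and 2039 TPM at day 20.

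**Figure D4:**
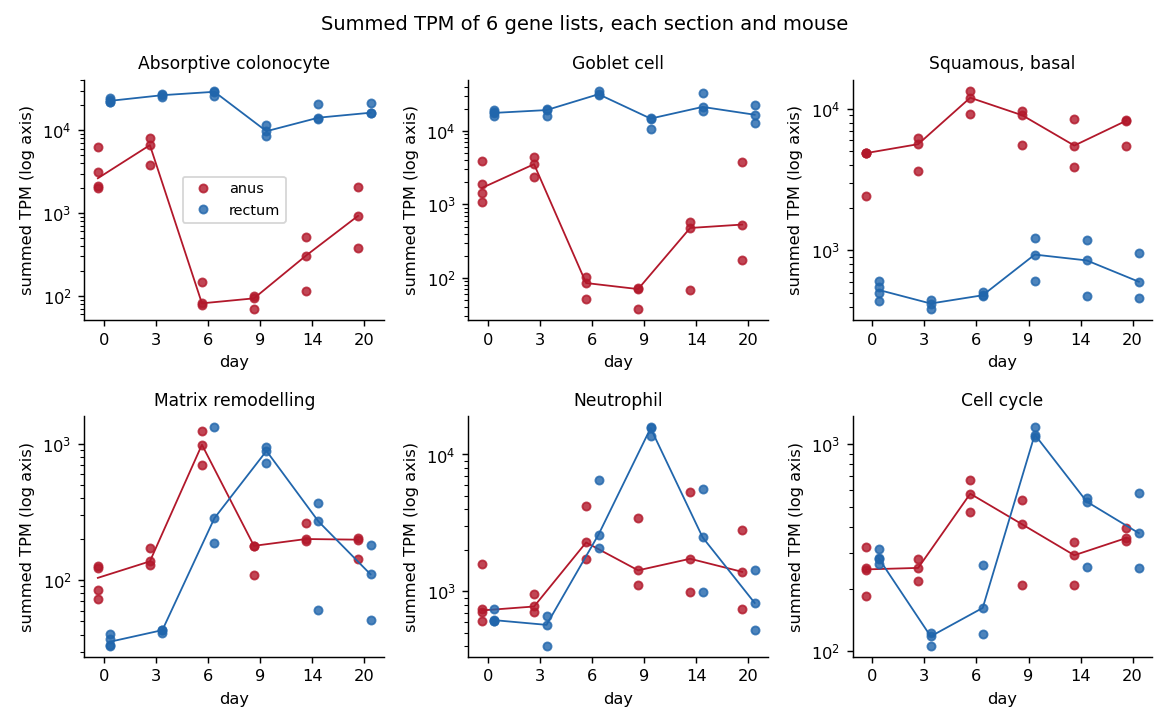
Summed TPM (log axis) of 6 gene lists in each sample of the anus (red) and rectum (blue) by day, with lines through the medians. In the anus colonocyte transcripts fell from at least 3817 TPM on day 3 to at most 148 on day 6 and matrix remodelling transcripts peaked on day 6, at 698 to 1229. In uninjured rectum the neutrophil list summed to a mean of 646 TPM, most of it Ly6g, whose mean is given above. Whether that sum follows neutrophil number was not tested.

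The day 6 response of the rectum was compared with that of the anus in the same mice. The difference between sections in the change from day 0 to day 6 was tested over 14 samples, and 3140 of 14571 genes were called (21.5%), 2243 with the more positive change in the anus (15.4%) and 897 with the more negative one (6.16%). With TMM factors 19.3% were called, 1362 more positive (9.35%) and 1447 more negative (9.93%), since the median difference over all genes was 0.26 and became 0.00 under that scaling. The count was 1857 and 1875 without mouse 9 and 10. In the rectum alone 6145 of 12615 genes were called (48.7%), 1455 higher (11.5%) and 4690 lower (37.2%). With TMM factors 36.4% were called, 2347 higher (18.6%) and 2244 lower (17.8%).

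Glandular genes differed in response. Of 16 colonocyte genes tested 14 had the more negative change in the anus, as did 11 of 14 goblet genes (medians −4.80 and −4.29), 6 of 7 enteroendocrine genes and 5 of 8 claudins, with 2 claudins more positive. Rectal colonocyte transcripts summed to between 21761 and 24214 TPM at day 0 and between 26074 and 30092 at day 6. Muc2 rose in the rectum, from 596, 510, 643 and 630 TPM to 1342, 1509 and 1196, and its difference in response was −5.00 (SE 0.63, adjusted p 0.000147). For Slc26a3, which was lower in the rectum too (log2 −0.80), the difference was −5.03 (SE 0.58, adjusted p 8.16e-05). The most negative differences named by rule were Lypd8 (−7.39), Dmbt1 (−7.18), Spink1 (−6.89), Muc13 (−6.72) and Sval1 (−6.69).

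Cell cycle genes differed in the other direction. Of 14 cell cycle genes, 13 had the more positive change in the anus (median 2.68), and 10 were lower in the rectum alone and 0 higher (7 and 1 with TMM factors). Ccnb1 went from 17.1, 16.9, 20.6 and 16.7 TPM to 8.92, 1.5 and 2.89 in the rectum, against the rise given above in the anus, a difference of 3.53 (SE 0.48, adjusted p 0.000275). Among the genes named by rule, Zfas1, a small nucleolar RNA host gene, had the largest positive difference (4.23, SE 0.95, adjusted p 0.00658). The mitotic genes Ccnb2 (3.72), Ccnb1, Cdca3 (3.51) and Cdc20 (3.42) followed. Zfas1 was at 78.3, 15.7, 55 and 57 TPM and then at 121, 81.6 and 129 in the anus, and at 48.7, 75, 7.77 and 87.3 and then at 3.63, 5.29 and 4.11 in the rectum. For Top2a the difference was 3.02 (SE 0.57, adjusted p 0.00257). Of 12 oxidative stress genes 6 were also more positive in the anus and 0 more negative.

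Interferon-stimulated and epithelial defence genes were more negative in the anus. In the rectum all 15 tested interferon-stimulated genes were higher (median 1.85), whereas in the anus 0 of 13 were higher and 3 lower (median −0.07). The difference was called as more negative in the anus for 14 of 16, and for 9 without mouse 10 and 4 with all samples of both sections in the fit. Ifit1, an antiviral effector, was at 10.7, 3.43, 6.22 and 3.4 TPM and then at 3.18, 2.75 and 2.75 in the anus, and rose from between 1.39 and 4.45 to 27.7, 32.3 and 20 in the rectum (difference −3.54, SE 0.50, adjusted p 0.000376). For Isg15 the difference was −3.32 and for Irf7 −2.46. The 3 lower genes in the anus, Irf7, Ifit2 and Irf1, each lost that call when any 1 of the day 6 mice was left out, and also without either of at least 2 uninjured ones, with adjusted p-values up to 0.133, 0.133 and 0.16. On the list of interleukin-17 and interleukin-22 responses, 8 of 8 genes tested in the rectum were higher. In the anus 0 of 8 were higher and 4 lower, or 2 lower without day 6 mouse 9 or 10, and with no filter on low values 3 of 15 were higher and 3 lower. Duox2, the epithelial oxidase that makes hydrogen peroxide, went from 10.6, 4.94, 6.77 and 9.69 TPM to 2.65, 0.148 and 0.626 in the anus and from 7.71, 14.1, 9.82 and 14.2 to 83.7, 62.1 and 81.2 in the rectum (difference −4.85, SE 0.49, adjusted p 2.65e-05). Saa1 differed by −6.65 (SE 0.60, adjusted p 1.11e-05) and the injury-associated epithelial gene Ly6a by −2.13 (SE 0.21, adjusted p 2.1e-05).

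Cytokines and proteases made few calls in that test. Of 16 genes of the interleukin-1 and interleukin-6 families 0 were called, as were 0 of 6 neutrophil chemokines and 0 of 15 macrophage genes. A more negative change in the anus was called for 4 of 12 neutrophil genes, 3 of 14 acute-phase genes and 2 of 12 CC chemokines, and a more positive one for 0 of each. The differences were 1.60 for Il6 (SE 0.78, adjusted p 0.162), 1.85 for Il11 (SE 1.08, 0.241), 1.35 for Cxcl1 (SE 0.81, 0.252) and 1.76 for Mmp10 (SE 1.03, 0.241), so the errors leave room for a difference of several fold. The rectal samples were uneven, with Mmp10 at 22.3, 12.6 and 299 TPM in mice 8, 9 and 10. In the anus of those mice it was at 169, 127 and 85.5. Among 15 matrix genes 1 differed in each direction, and Tnc was the one with the larger rise in the anus (2.29, SE 0.47, adjusted p 0.00406). S100a8 had the larger rise in the rectum on the log2 scale, from at most 1.27 TPM to 141, 305 and 1543 (difference −5.95, SE 0.96, adjusted p 0.000921). It started far lower there than in the anus, and the rise in TPM was not compared.

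**Figure D5:**
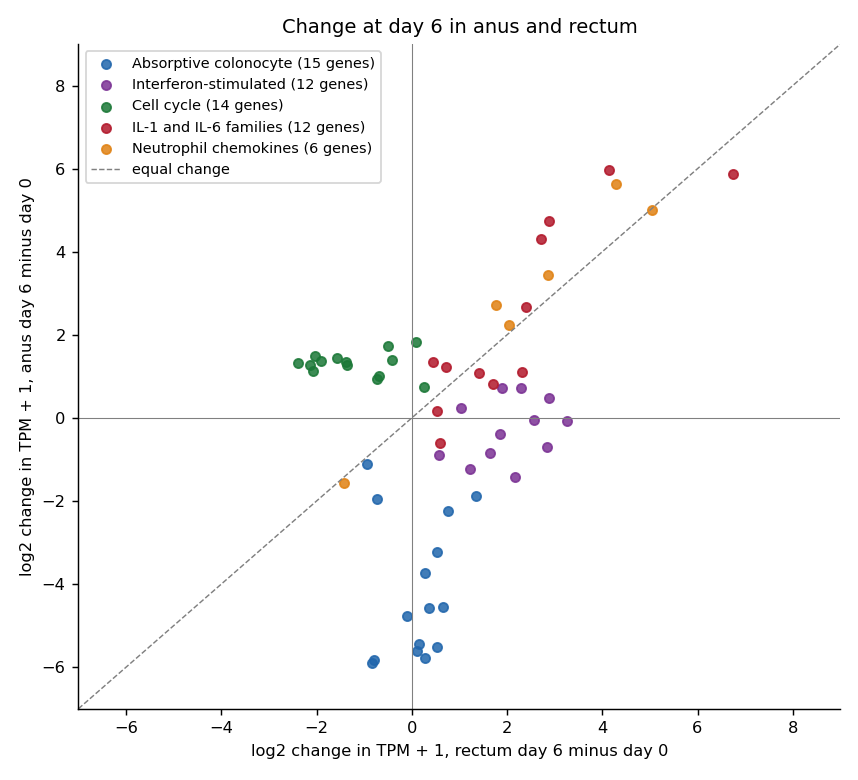
Log2 change in TPM + 1 from day 0 to day 6 in the rectum (horizontal axis) and in the anus (vertical axis) for tested members of 5 gene lists, with a dashed line of equal change. Colonocyte genes lie far below the line (Slc26a3 at −0.80 and −5.82), most cell cycle genes above it (Ccnb1 with opposite signs, at −2.03 and 1.50), and Cxcl1 (4.28 and 5.63) lies near it.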

How the data were processed

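RNA from the anal section of wild-type mice was sequenced as stranded mRNA libraries with single 75 bp reads, per the labels' protocols. The authors deposited 1 table of transcript abundances in TPM, another measure than counts, so depth and counting error are unknown. kallisto, CASAVA and mm10 are named in the submitters' processing notes, and the transcript index is not given in the sources used here. Of 126860 rows, 37344 held no value and 1318 repeated a transcript. Repeats were dropped, after which the samples had equal TPM totals within rounding, and the 88198 transcripts were summed to 30452 genes by the deposited gene identifier.

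Genes with at least 1 TPM in at least 3 samples of a fit were tested on log2(TPM + 1) with limma 3.58.1 (trended prior, R 4.3.3), with Benjamini-Hochberg adjustment over all genes tested and a threshold of 0.05. The main fits were day 6 against day 0 (3 and 4 mice), day 6 against day 3 (3 and 3) and the section by day interaction with the rectum (14 samples), which came from the same mice. Day 3 and day 9 against day 0 in the anus, and day 6 against day 0 in the rectum, were fitted the same way. Of the alternatives below only TMM factors were run for those fits. Within the interaction, deviations of the anal and rectal sample of a mouse correlated at 0.031 on average (range −0.028 to 0.113). Alternatives were trimmed means of M-values (TMM, computed from the published formula), rescaling without mitochondrial and skeletal muscle genes, a pseudocount of 0.1, no filter or one of 5 TPM, all samples of the section in the fit, a replicate block and leaving out each mouse. The fit was tested on simulated data.

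Named genes were the 15 (day 6 against day 0) or 5 (other comparisons) largest called changes in each direction with no overlap of the groups and a mean of at least 8 TPM in the higher group, and members of 39 lists holding 480 genes. Members and lists were chosen with earlier results of these data known. Symbols are those of the deposited table. Promoters and positions are of GRCm38, from RefSeq (GRCm38.p6) and GENCODE. The labels give no dates or batches. Results for some genes are not reported here.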

Additional observations from a re-analysis of the deposited data

Results flagged for a closer look

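Uninjured samples in which 1 mouse lay far from the other 3 were found for 16 of the 112 genes named in the day 6 against day 0 comparison. The rule flags about 1 in 20 sets of independent, normally spread values. These genes were chosen with results known and were measured in the same mice, so no excess over chance is read from the count. Mouse 1 was the distant sample for 8 genes, mouse 4 for 7 and mouse 3 for 1. Mouse 1 was low for Krt14 (1208 TPM), Krt5 (454), Tnc (0.679), Rrm2 (4.71), Aurkb (1.09) and Mt2 (639) and high for Ppbp (1268) and Osm (0.206). Mouse 4 was high for the gland genes Dmbt1 (1227 TPM), Pigr (601), Muc13 (691) and Cldn8 (21.2), and for Il24 (0.516), Clec4e (0.0511) and Mmp13 (1.69). Mouse 3 was low for Krt16 (106 TPM). Groups of 3 mice were not examined this way.

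The response at day 6 differed between anus and rectum for 3140 genes by the interaction test. On the log2 scale, anus minus rectum, the named ones with a more positive response in the anus were Zfas1 (4.23), Ccnb2 (3.72), Ccnb1 (3.53), Cdca3 (3.51), Cdc20 (3.42), Top2a (3.02) and Tnc (2.29). Those with a more negative response were Lypd8 (−7.39), Dmbt1 (−7.18), Spink1 (−6.89), Muc13 (−6.72), Sval1 (−6.69), Saa1 (−6.65), S100a8 (−5.95), Slc26a3 (−5.03), Muc2 (−5.00), Duox2 (−4.85), Ifit1 (−3.54), Isg15 (−3.32), Irf7 (−2.46) and Ly6a (−2.13).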

How the results depend on the processing

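With a 2-fold minimum the counts of called genes were 1291 for day 6 against day 0, 1240 for day 6 against day 3 and 1945 for the difference between sections, and with all anal samples in the fit the first was 3303. Leaving out 1 mouse gave between 805 and 2130 genes for day 6 against day 0, between 1020 and 1675 for day 6 against day 3 and between 1857 and 3849 for the difference between sections. The replicate block, with the mouse that gave both sections, called 2263 genes (1479 with the more positive change in the anus and 784 with the more negative) and changed the call of 0 of the 21 named genes called there. Of 104 named genes called between day 6 and day 0, 93 were called in every setting that tested them, 11 lost the call in some setting and 0 changed sign. Both sign changes were of Cldn1, which was not called (0.02 without uninjured mouse 3, 0.10 without day 6 mouse 10, and between −0.10 and 0.10 over all mice left out). With 2 day 6 mice left, 12 named genes were not tested. The cause of these shifts was not tested. Depth is unknown, so values near 0 carry no counting error here, and 3 or 4 mice limit the precision of every change.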
